A study of Rattus rattus with 8 samples.

Results

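The set described here holds 10 genes, namely 9 genes of glucocorticoid sensing, steroid metabolism and hormone response and the gene Ska2, in whisker hair follicles of rats after simulated blast. They were found on the arrays by their RefSeq mRNA accessions, and they are 10 of the 16175 such accessions that the arrays carry. In all, 13 of the 30367 different probes belong to them. Of the 10 genes, 9 were listed for their known role, with earlier results of these arrays known. The remaining gene, Ska2, was chosen by the study for qPCR from its own list of genes that changed on these arrays. Its difference between blast and sham control is therefore given as a description with no test, and counts and medians of that difference are given for the other 9 genes.

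RNA from hair follicles of 3 sham control rats (named C1, C2 and C3) and 5 blast rats was measured on 1 array for each animal. The blast rats had shock wave pressures of 145 kPa (21.03 psi, M2 and M3), 175 kPa (25.4 psi, H1) and 200 kPa (29.0 psi, XH1 and XH3), and the sham control rats 0 kPa (0 psi). All animals were adult male Sprague-Dawley rats, and for exposure a rat was held under isoflurane with its head in the path of a single shock wave. The labels give the species as Rattus rattus, whereas Sprague-Dawley is a strain of Rattus norvegicus. Whisker follicles were pulled 1 day or 1 week after exposure, which of these is not known for any rat, and RNA came from several follicles pooled for each animal. A difference between the groups can thus not be told apart from a difference in the period after exposure.

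Glucocorticoids are steroid hormones of the adrenal cortex that are released under stress. Inside a cell they bind receptors that move to the nucleus and switch genes on or off, and enzymes of the same cell make the hormone active or inactive before it reaches a receptor. Skin and hair follicles express the receptors and these enzymes, and follicle cells can also make the precursor of the pituitary hormone that drives the adrenal cortex.

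All levels below are log2 of the quantile normalized intensity, in which a step of 1 is a doubling, and the brightest probe stands for a gene. A log2 fold change is the blast mean minus the sham control mean, given with its standard error (SE) from limma. The arrays name a probe by its accession. The symbol of Ska2 is paired with its accession in the study's primer table, and the symbols of the other 9 genes came with the list and were not checked against a gene table of this species. Before normalization, the median signal of the 58717 spots that were not controls was 280.5 for C1 and between 90.9 and 179.9 for the other 7 rats. The C1 array had the largest share of spots well above background, 73.0%, and the M3 array the smallest, 65.9%. The M3 array also had the most spots marked as outliers, 947, against 375 to 753 on the others. Both arrays stand at the ends of several results that follow.

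In the comparison of blast with sham control, 7 of the 9 genes other than Ska2 had a lower mean in the blast rats, where 49.0% of all 30366 probes tested were lower. The median log2 fold change of the 9 genes was -0.38, against 0.00453 for all probes. This median is the value of Nr3c2. Its probe and that of Hsd11b1, both counted as lower, were each well above background on only 3 of the 8 arrays. In limma, 0 of the 9 genes had an unadjusted p under 0.05, and their unadjusted p lay between 0.206 and 0.954. Of all probes, 850 (2.80%) had an unadjusted p under 0.05, 358 of them higher and 492 lower in blast rats. This balance turned to 952 higher and 697 lower without H1, and to 1197 higher and 662 lower with the 200 kPa rats alone against sham control. After Benjamini-Hochberg adjustment, 0 probes (0.00%) were under 0.05, the smallest adjusted p of any probe was 0.541, and that of the 9 genes was 0.9999. The values of the blast and sham control rats overlapped in each of the 10 genes, Ska2 among them. The share of all probes that did so is not given, so the overlap only describes single genes. Because each sample is a whole follicle pool, fewer cells of a type and less RNA per cell cannot be told apart.

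**Figure D1:**
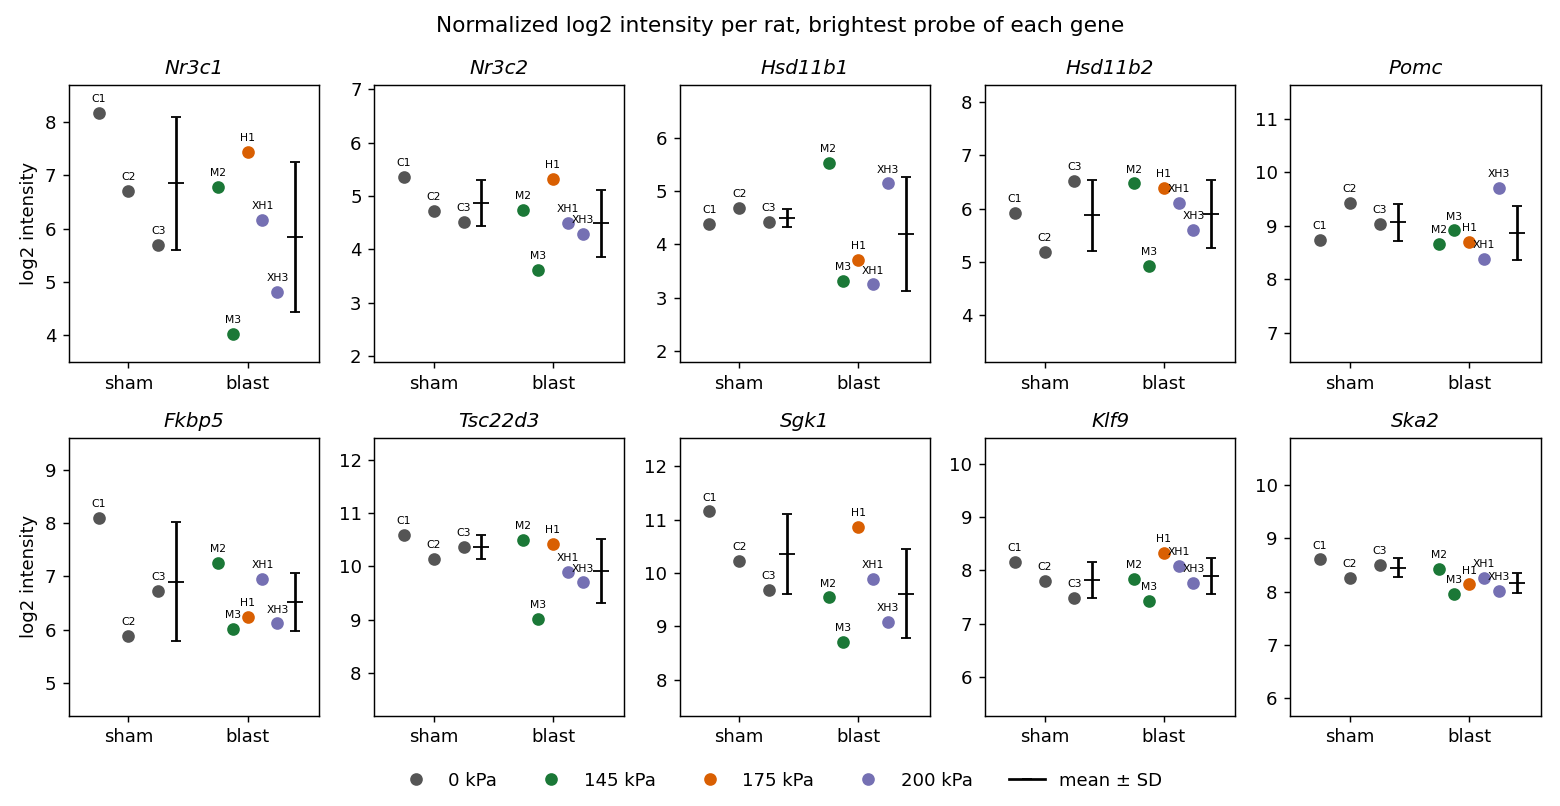
Normalized log2 intensity (y axis) of the brightest probe of each of the 10 genes in the 3 sham control and 5 blast rats (x axis), with pressure as colour and the mean ± SD of each group as bars. Each panel spans the same number of log2 units, so that Nr3c1, from 4.03 in M3 to 8.16 in C1, where M3 was not well above background, is seen to vary widely and Ska2, from 7.95 to 8.60, little.

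Nr3c1 (NM_012576) encodes the glucocorticoid receptor, to which the hormone binds. Its transcript level was 8.16, 6.70 and 5.69 in C1, C2 and C3. In the blast rats it was 6.78 and 4.03 at 145 kPa (M2 and M3), 7.44 at 175 kPa (H1) and 6.16 and 4.82 at 200 kPa (XH1 and XH3). C1 lay above every blast rat, and M3 and XH3 lay below every sham control rat, while the other 3 blast rats fell among the sham control values. All 3 sham control arrays but only 3 of 5 blast arrays had the probe well above background. M3 and XH3 did not, so their low values are not measured levels. The means were 6.85 ± 1.25 (SD, n = 3) and 5.85 ± 1.40 (SD, n = 5). Blast minus sham control gave a log2 fold change of -1.00 (SE 0.89, 95% interval -3.09 to 1.08), so that the difference was within the spread between rats. This fold change includes the values of M3 and XH3, so its size is not exact. It was -0.35 without C1, -0.55 without M3 and -1.59 without C3, and -0.48 with normexp and -0.46 with array quality weights. Without C1 and M3 together it was 0.11.

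The dimmer probe of Nr3c1 was well above background only in C1, that is on 1 of 3 sham control arrays and on 0 of 5 blast arrays, so no fold change is given for it. Its spots differed by 0.599 log2 units on average within an array, against 0.165 for the brighter probe.

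Nr3c2 (NM_013131) encodes the mineralocorticoid receptor, which also binds glucocorticoids. Its level was 5.36, 4.72 and 4.52 in the sham control rats C1, C2 and C3. In the blast rats it was 4.73 in M2, 3.61 in M3, 5.32 in H1, 4.49 in XH1 and 4.29 in XH3. As for Nr3c1, C1 was highest and M3 lowest, and H1 was the highest blast rat, while M3, XH1 and XH3 lay below all sham control rats. Its log2 fold change was -0.38 (SE 0.38, 95% interval -1.27 to 0.52). On 1 of 3 sham control and 2 of 5 blast arrays this probe was well above background, and without C1 and M3 the value turned to 0.09 and with normexp it was -0.07. The other probe of Nr3c2 was not well above background on any of the 8 arrays and gives no level.

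Hsd11b1 (NM_017080) encodes the enzyme that regenerates active glucocorticoid from its inactive form. Its level was 4.38, 4.68 and 4.41 in C1, C2 and C3. Among the blast rats it was 5.53 in M2 and 5.14 in XH3, and 3.32, 3.70 and 3.25 in M3, H1 and XH1. The sham control rats lay close together, and the blast rats parted into 2 rats above all of them and 3 below. The SD was 0.17 in sham control (n = 3) and 1.07 in blast (n = 5). The rats on either side of the sham control values did not share a pressure, since 1 of the 2 rats at 145 kPa and 1 of the 2 at 200 kPa lay on each side. The probe was well above background only in C1, M2 and XH3, so the low values are near background, and its spots differed by 0.487 log2 units on average within an array. Between the groups the log2 fold change was -0.31 (SE 0.58, 95% interval -1.67 to 1.06), with array quality weights it was 0.15, and with normexp -0.01. Leaving out 1 rat gave values from -0.64 (without M2) to -0.07 (without XH1).

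Hsd11b2 (NM_017081) encodes the enzyme with the opposite role, which inactivates glucocorticoid. Its level was 5.92, 5.18 and 6.51 in C1, C2 and C3, and 6.47, 4.92, 6.39, 6.10 and 5.60 in M2, M3, H1, XH1 and XH3. All blast rats except M3 fell within the range of the sham control rats, and M3 was the only rat without a level well above background. With a log2 fold change of 0.03 and an SE of 0.44, the 95% interval was -0.99 to 1.05, which reaches from nearly a halving to a doubling. Its sign depended on the rats and the processing, with values from -0.33 to 0.35 over 22 alternatives. The arrays lay in 2 rows of 1 slide, and the difference was 0.88 in the row of C1, C2, M2 and H1 and -0.97 in the row of C3, M3, XH1 and XH3.

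Pomc (NM_139326) encodes the precursor from which corticotropin and the melanocortins are cut. Its level was 8.74, 9.43 and 9.03 in C1, C2 and C3. In the blast rats it was 8.66 in M2, 8.91 in M3, 8.69 in H1, 8.38 in XH1 and 9.71 in XH3. The 2 rats at 200 kPa were the lowest and the highest of all 8 rats, and M2 and H1 were also below all sham control rats. Unlike in the receptors, M3 lay in the middle and C1 was the lowest sham control rat. The probe was well above background on all 8 arrays, with means of 9.07 ± 0.35 (SD, n = 3) and 8.87 ± 0.50 (SD, n = 5). This is a log2 fold change of -0.19 (SE 0.31, 95% interval -0.93 to 0.54), and with array quality weights the value was 0.03. Single rats moved it to -0.40 without XH3 and to -0.01 without C2.

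Of the genes that glucocorticoids induce, Fkbp5 (NM_001012174) encodes a co-chaperone that lowers the affinity of the receptor for its hormone. Its level was 8.10, 5.88 and 6.72 in C1, C2 and C3. It was 7.24 and 6.02 in M2 and M3, 6.24 in H1, and 6.95 and 6.12 in XH1 and XH3. All blast rats lay within the range of the sham control rats, which was set by C1 at the top and C2 at the bottom of all 8 rats. Its log2 fold change was -0.39 (SE 0.52, 95% interval -1.61 to 0.84). Without C1 it was 0.21, and without C2 it was -0.90, so that its size and its sign changed with single sham control rats.

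Tsc22d3 (NM_031345) encodes the glucocorticoid-induced leucine zipper protein, which restrains inflammatory signalling. Its level was 10.59, 10.14 and 10.36 in C1, C2 and C3. At 145 kPa it was 10.49 in M2 and 9.02 in M3, at 175 kPa 10.42 in H1, and at 200 kPa 9.90 in XH1 and 9.70 in XH3. Below all sham control rats were M3, XH1 and XH3, which shared the second row of the slide with C3, while M2 and H1 of the first row lay among the sham control rats. Blast rats differed from sham control by a log2 fold change of -0.45 (SE 0.34, 95% interval -1.26 to 0.35). It was 0.09 within the first row and -0.82 within the second, and -0.30 with the row as a block. Without M3 it was -0.23. With only the 2 rats at 200 kPa set against sham control it was -0.56 (SE 0.18), at an unadjusted limma p of 0.0341 and an adjusted p of 0.808, a comparison in which 6.12% of all probes had an unadjusted p under 0.05. Both of these blast rats lay in the second row, and the part of the row was not tested.

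Sgk1 (NM_019232) encodes a kinase that acts on ion channels and cell survival and is induced through both receptors. Its level was 11.16, 10.23 and 9.69 in C1, C2 and C3. The blast rats had 9.54 in M2, 8.70 in M3, 10.87 in H1, 9.89 in XH1 and 9.08 in XH3. Again C1 was highest and M3 lowest, and M2 and XH3 also lay below all sham control rats, whereas H1 was above 2 of the 3. The means were 10.36 ± 0.74 (SD, n = 3) and 9.62 ± 0.83 (SD, n = 5). They differ by a log2 fold change of -0.74 (SE 0.53, 95% interval -1.99 to 0.51), which as a ratio is 0.599 (0.252 to 1.42). It was -0.49 and -0.46 within the first and second row of the slide. It was -0.34 without C1. Without H1 it was -1.05, at an unadjusted limma p of 0.0460 and an adjusted p of 0.911, where 5.43% of all probes had an unadjusted p under 0.05. Without C1 and M3 it was -0.11.

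Klf9 (NM_057211) encodes a zinc finger transcription factor that glucocorticoids induce in the epidermis. Its level was 8.16, 7.80 and 7.48 in C1, C2 and C3, and 7.84, 7.43, 8.32, 8.08 and 7.76 in M2, M3, H1, XH1 and XH3. M3 was just below and H1 just above the sham control range, and the other 3 blast rats were inside it. Blast and sham control differed by 0.07 on the log2 scale (SE 0.24). Its 95% interval, from -0.48 to 0.63, was the narrowest of the 9 genes, but its sign changed with the rats that were compared. It was -0.04 without H1, -0.09 without C3 and -0.18 with the 145 kPa rats alone against sham control.

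Ska2 (NM_001009624) encodes a subunit of the spindle and kinetochore associated complex, which holds chromosomes to microtubules in mitosis, and its protein is also known to bind the glucocorticoid receptor. Its level was 8.60, 8.25 and 8.49 in C1, C2 and C3. In the blast rats it was 8.42 in M2, 7.95 in M3, 8.13 in H1, 8.26 in XH1 and 8.02 in XH3. Below all sham control rats were M3, H1 and XH3, and C1 and C3 were above all blast rats, so that the groups overlapped only through C2, M2 and XH1. The means were 8.45 ± 0.18 (SD, n = 3) and 8.16 ± 0.19 (SD, n = 5), a log2 fold change of -0.29 (SE 0.15). The pooled SD between rats of a group, 0.19, was the smallest of the 10 genes. Leaving out 1 rat gave values from -0.39 (without C2) to -0.22 (without C1), and leaving out C1 and M3 gave -0.17.

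The other probe of Ska2 was well above background in all 8 rats, with 1 spot on each array. Its level was 6.19, 6.07 and 6.49 in C1, C2 and C3, and 6.66, 5.44, 6.19, 6.34 and 6.07 in M2, M3, H1, XH1 and XH3. With this probe M2 was the highest of all rats, M3 was again the lowest, and the remaining blast rats fell within the sham control range. It gave a log2 fold change of -0.11 (SE 0.27). The levels of both probes had a Pearson correlation of 0.704 over the 8 rats. The study's qPCR primers are shown because they identify the transcript that was chosen, each with 20 bases, written 5′ to 3′ in lower case.
Ska2 forward: agtctcacgtgccagacgta
Ska2 reverse: cagcccccaacctctagaca
The qPCR values were not analysed here.

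Across the 10 genes, the same arrays stood at the ends. C1 had the highest level in 6 of the 10 genes, or 5 of the 9 without Ska2, and it was highest in 16.3% and lowest in 20.1% of the 30217 probes measured on every array. M3 had the lowest level in 7 of the 10 genes, or 6 of the 9, and in Nr3c1, Nr3c2 and Hsd11b2 among them it was not well above background. It was lowest in 22.9% and highest in 22.1% of these probes. Among the 16822 probes that every array had well above background, C1 was highest in 18.9% and lowest in 17.3%. M3 was lowest in 30.1% and highest in 23.6% of them, and XH1 was highest in 19.2%. Over all probes, both arrays were thus often at either end. Averaged over the 10 genes, the deviation from a gene's mean was 0.64 for C1 and -0.88 for M3, and between -0.25 and 0.30 for the other 6 rats. C1 also had the highest signal before normalization, and M3 had a median signal of 93.3, near that of C2 at 90.9. The part of array signal in these deviations was not tested.

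**Figure D2:**
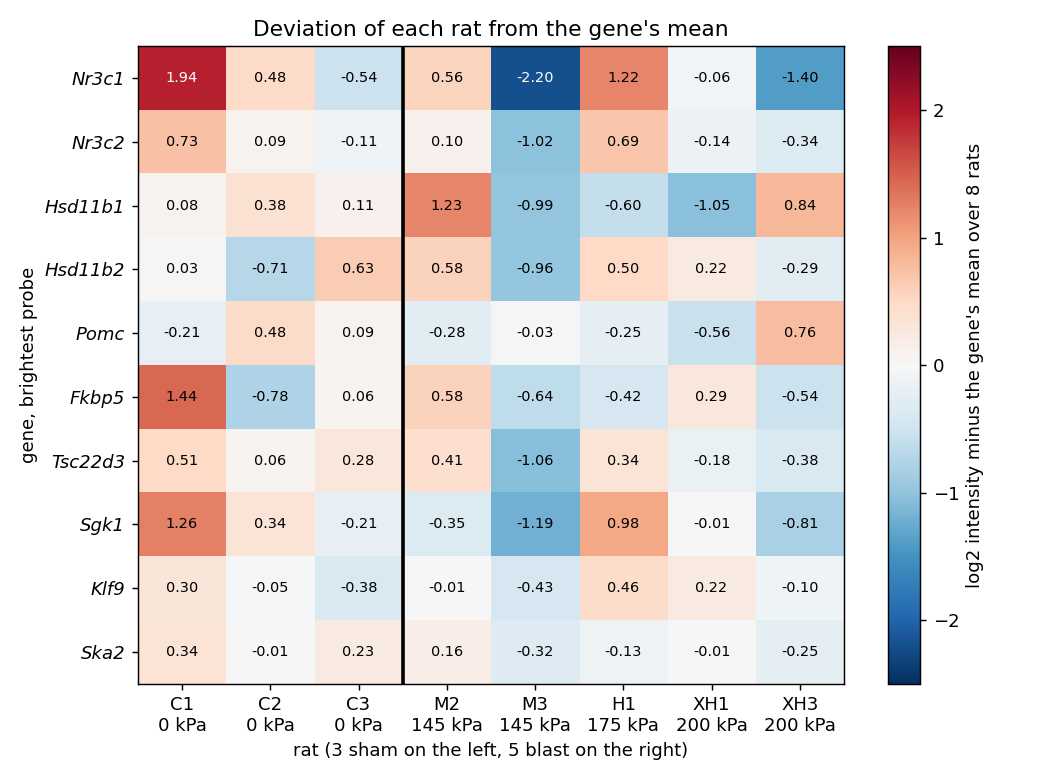
Deviation of each rat (x axis, sham control left of the line) from the mean of each gene over 8 rats (y axis), in log2 units, shown as colour and printed in each cell. C1 is positive in 9 of the 10 genes, with Pomc at -0.21 as the exception, and M3 is negative in all 10, from -0.03 in Pomc to -2.20 in Nr3c1.

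C1 is a sham control rat and M3 a blast rat, so the lower mean of blast in 7 of the 9 genes other than Ska2 was examined without them. With both left out, a choice made after the data were seen, 4 of the 9 genes were lower in blast and the median log2 fold change was 0.09. Leaving out a high sham control rat and a low blast rat moves the difference upward by construction. The median was -0.34 without C1 alone, with 6 genes lower, and -0.21 without M3 alone, with 7 genes lower. Some choices gave more lower genes, 9 without H1 (median -0.32) and 9 with the 145 kPa rats alone against sham control (median -0.28). With the 200 kPa rats alone 8 were lower, and with array quality weights 6. Within the first row of the slide (C1, C2, M2 and H1) 5 of the 9 genes were lower and the median difference was -0.01. In that row 49.5% of 30217 probes were lower, so the count of 5 is near the share of all probes. Within the second row (C3, M3, XH1 and XH3), which holds 1 sham control rat, 8 were lower and the median was -0.46. There 50% of these probes were lower. With the row as a blocking term the median was -0.25, with 7 genes lower. In the authors' deposited log2 values 7 genes were lower as well, with a median of -0.37. With normexp, which handles the background in another way and adds an offset, also 7 were lower, with a median of -0.16. The offset draws the values of dim probes toward 0, and its part in the smaller median was not tested. The median pooled SD between rats of a group was 0.65 for the 9 genes and 0.42 for all probes. It was 0.39 for the probes well above background on every array. Nr3c1, Nr3c2, Hsd11b1 and Hsd11b2 include values near background, and this difference in spread was not tested.

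The levels of several of the 10 genes moved together from rat to rat. As a description over 8 rats that share 1 slide and 1 normalization, Pearson correlations were taken after subtracting each group's mean. The highest of the 45 pairs was Sgk1 with Klf9, at 0.975, and without C1 and M3 it was 0.963. Nr3c1 and Nr3c2 had 0.958, and 0.901 without those rats, but the Nr3c2 probe was well above background on 3 of the 8 arrays and that of Nr3c1 on 6, so this pair rests largely on signal near background. Nr3c1 had 0.932 with Sgk1 and 0.921 with Klf9, which became 0.859 and 0.788. The Nr3c1 values of M3 and XH3, which were not well above background, enter both correlations, and XH3 stayed in without C1 and M3. In these pairs H1 was the highest blast rat and M3 the lowest in each gene, and C1 was the highest sham control rat.

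By the brightest probes, Fkbp5 followed Ska2 more closely than it followed either receptor, a contrast picked after the pairs were seen. Its correlation with Ska2 was 0.884, and 0.973 without C1 and M3, while with Nr3c1 it was 0.568, and 0.059 without them. The receptor probes include signal near background, the other Ska2 probe was not used, and the share of all probe pairs at such values is not given. The lowest pair was Pomc with Ska2, at -0.685 (-0.730 without C1 and M3), and Pomc was negative with every gene except Hsd11b1. Over all 45 pairs the median correlation was 0.468 and 35 were above 0, against a median of 0.028 for pairs among the 16822 probes well above background on every array, whose quartiles were -0.446 and 0.496. Without C1 and M3 the median of the 45 pairs was 0.090, a drop that leaving out the rats at both ends brings in part by construction. Among the 6 genes that every array had well above background, the median of 15 pairs was 0.420, and -0.266 without the 2 rats.

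Hbb (NM_033234), a hemoglobin chain and a marker of blood, was the only gene of another tissue with a name in the study's primer table that was examined. Its brighter probe had 10.21, 13.97 and 11.64 in C1, C2 and C3 and 17.43, 13.34, 15.37, 13.31 and 14.43 in M2, M3, H1, XH1 and XH3. C1, which was highest in 6 of the 10 genes, was the lowest rat in Hbb, and M2 was by far the highest. This probe of Hbb had a log2 fold change of 2.84 (SE 1.17). The dimmer probe, well above background on all 8 arrays, had 3.46 (SE 1.15). Like Ska2, Hbb was chosen by the study for qPCR from its list of changed genes, so these differences are descriptions. After subtracting group means, the correlation of Hbb with the 10 genes ran from -0.252 (Fkbp5) to 0.659 (Hsd11b1). The Hsd11b1 probe was well above background on only 3 of the 8 arrays, so its correlation rests largely on signal near background. M2 was the highest rat in both Hbb and Hsd11b1. The part of blood in the levels of the 10 genes was not tested. Keratins and other markers of follicle layers were not analysed here.

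A trend with pressure was fitted over the 5 blast rats. The study does not say whether its own analysis set the pressures apart when Ska2 was chosen, so Ska2 was described here with no test as well. In limma, 0 of the other 9 genes had an unadjusted p under 0.05, where 860 of 30236 probes (2.84%) did, and the unadjusted p of the 9 genes lay between 0.404 and 0.915. The count of 860 depended on single rats, and was 4744 without M2, 1301 without M3, 409 without XH1 and 508 without XH3. After Benjamini-Hochberg adjustment in limma, 0 probes were under 0.05. The fitted change from 145 to 200 kPa was above 0 in 7 of the 9 genes, where 54.5% of all probes had a rising slope. Without M3, the lowest rat at 145 kPa in most of these genes, it was above 0 in 2 of the 9, while without M2 and with the slide row as a block it was so in all 9. For Nr3c1 the fitted change was 0.16 (SE 1.37), both pressures with 2 rats held a high and a low rat, and without M3 it was -1.47. Klf9 had a fitted change of 0.30 (SE 0.32), which was 0.02 without M3. Sgk1 had 0.42 (SE 0.79), which was -0.24 without M3. The Ska2 level averaged 8.19 in the 2 rats at 145 kPa, 8.13 in H1 and 8.14 in the 2 rats at 200 kPa, a fitted change of -0.05 (SE 0.23). This change was 0.18 without M2 and -0.27 without M3, and it took the other sign in 5 of 17 alternatives.

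In both receptors, Sgk1 and Klf9, the single rat at 175 kPa was the highest blast rat, so these levels did not run in the order of pressure. With 1 rat at that pressure, the pressure and the rat cannot be told apart. When the slide row entered the fit as a block, the fitted change of Nr3c2 was 0.83 (SE 0.19), at an unadjusted limma p of 0.0203 and an adjusted p of 0.807, where 5.83% of all probes had an unadjusted p under 0.05. Without the block it was 0.25 (SE 0.61). Since only 2 of the 5 blast arrays had this probe well above background, both values rest mostly on signal near background. In each of the 9 genes other than Ska2, the 95% interval of the fitted change without the block included both no change and a doubling.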

How the data were processed

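Whisker follicle RNA of 8 rats (3 sham control, 5 blast, grouped by the pressures in the labels) was measured on 1-colour Agilent arrays that shared 1 slide. The authors deposited the intensity of each spot after background subtraction, made with Feature Extraction (10.7.1.1 in the file headers), and a table of quantile normalized log2 values. Here, control and outlier spots were dropped from the intensities, and log2 values of a probe's spots were averaged. The arrays were brought to a common distribution by quantile normalization, and any normalized intensity below 3.0 was replaced by 3.0. The study's methods set the same limit, but for measured spots. Groups were compared in R 4.3.3 with lmFit and eBayes of limma 3.58.1, with Benjamini-Hochberg adjustment over all 30366 probes tested. The trend with pressure used the 5 blast rats and is given over the 55 kPa from 145 to 200 kPa. Only the limma comparison of blast with sham control was tested on simulated data, with noise drawn independently for each probe and array.

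All 10 genes are named, each by its brightest probe with its other probes beside it, as is Hbb through the study's primer table. The members and lists were chosen with earlier results of these data known. Symbols could not be looked up, because 0 of the 26997 probe accessions matched the gene table used, that of Rattus rattus (Rrattus_CSIRO_v1). Other genes of the pathway, cell type markers except Hbb, and promoter motifs were therefore not analysed here.

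Alternatives were 75th percentile scaling, a lower limit of 8 or none, only probes that 3 or more arrays had well above background, outlier spots kept, normexp (offset 50), the authors' log2 values, array quality weights, the title number or the slide row as a block, the mean of a gene's probes, single pressures, and each rat left out. Leaving out C1 and M3 together was chosen after seeing the data. The number of arrays limits the precision.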

Additional observations from a re-analysis of the deposited data

How the results depend on the processing

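The number of all probes at an unadjusted p under 0.05 (850) was 412 among the 19974 probes that 3 or more arrays had well above background, where fewer probes were tested. It was 2246 with array quality weights and 1859 with the 200 kPa rats alone against sham control. Leaving out 1 rat at a time, it lay between 657 (without C1) and 1649 (without H1). The number at an adjusted p under 0.05 in limma was 0, and 2 without C1, 3 without C3 and 2 without C1 and M3.

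Of the 9 genes other than Ska2, 0 had an unadjusted p under 0.05. With the 200 kPa rats alone 1 did (Tsc22d3, where 6.12% of all probes did). Leaving out 1 rat at a time, this ranged from 0 to 1, with Sgk1 without H1 (-1.05, where 5.43% of all probes did). With array quality weights 0 of the 9 did. The number of the 9 genes lower in blast, 7, was 4 without C1 and M3, and ranged from 6 (without C1) to 9 (without H1) when 1 rat was left out. The median log2 fold change of the 9 genes, -0.38, was -0.57 without M2, and -0.16 with normexp, whose offset draws dim probes toward 0. For the trend with pressure, 0 of the 9 genes passed, and 1 (Nr3c2, where 5.83% of all probes did) with the slide row as a block, and from 0 to 0 with each blast rat left out, where the number of all probes that passed (860) ranged from 409 (without XH1) to 4744 (without M2). For the weights and the blocks the cause was not tested.

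When the title number entered as a replicate block, 850 probes had an unadjusted p under 0.05, of which 312 were higher and 538 lower, against 358 and 492 without it. Of the 9 genes 1 did (Sgk1, -0.76, adjusted limma p of 1), and for the trend 2113 probes did, against 860. Whether the title numbers pair the rats is not known. Deviations of same-numbered sham control and blast rats correlated from -0.584 to 0.508, and above 0.1 in 2 of 5 pairs. For rats of different numbers they ran from -0.665 to 0.605, and above 0.1 in 4 of 10 pairs. So few correlations cannot settle a pairing.

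For the 9 genes other than Ska2, 164 log2 fold changes under the alternatives differed from those reported, of which 16 took the other sign. None moved by more than the SD between rats. That SD includes the rat left out, so leaving out a single rat could not pass it, and this does not show that the values are stable. The sign of Tsc22d3 and Sgk1 did not change under the 22 alternatives. Of 119 fitted trends that differed, 21 took the other sign, and 15 moved by more than that SD, among them Nr3c1, Nr3c2, Hsd11b1, Hsd11b2 and Tsc22d3 without M3. The dim probes of Nr3c1, Nr3c2, Hsd11b1 and Hsd11b2 limit what can be read from those genes.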
